A study of Mus musculus with 18 samples.

Results

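The transcriptional response to docetaxel, a taxane that stabilises microtubules, was measured in PyMT-BO1 mouse breast cancer cells whose deleted integrin β3 had been replaced by functional human integrin β3 (hβ3). The members are the 6 hβ3 libraries among the 18 RNA-seq libraries of the study, chosen by line and treatment: 3 cultures in DMSO, the solvent, and 3 in 10 nM docetaxel, all harvested after 24 h. PyMT-BO1 is described as luminal B-like and comes from the C57BL/6 strain. Every culture of the study carries the integrin β3 knockout, the controls included. In 6 further libraries the knockout cells carried the empty retroviral vector (pMx), and in another 6 a signalling-deficient mutant of integrin β3 (Δβ3), again 3 in DMSO and 3 in docetaxel. The cultures of a group are replicates of 1 transduced line, so p-values reflect only how far these cultures vary. Anything else that distinguishes 1 line from another enters a comparison between lines.

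Integrin β3 pairs with the αv or αIIb chain to form receptors for matrix proteins, and it signals through adhesion complexes linked to actin. Taxanes bind polymerised tubulin and hold dividing cells in mitosis, from which cells can die or leave without dividing properly. Cells also adjust their tubulin mRNA to the pool of unpolymerised tubulin, and p53 and interferon genes are well-known responders to stress after abnormal mitosis.

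The hβ3 DMSO libraries held 16299167 to 18961392 counts and the docetaxel libraries 12338787 to 13853547. Rn45s, the ribosomal RNA precursor, took 27.5%, 10.9% and 33.0% of the counts in the DMSO cultures and 15.8%, 11.1% and 19.2% in the docetaxel cultures, in the order of their numbers. A chi-square of the counts per degree of freedom was 161.8 and 259.8 for the pairs of DMSO culture 2 and 25.6 for cultures 1 and 3. Rn45s was kept in this statistic, which therefore includes the difference in its share. The correlations of log2 CPM were closer together, at 0.9872 and 0.985 for the pairs of DMSO culture 2 and 0.9907 for cultures 1 and 3. Without DMSO culture 2, 1957 genes were called between docetaxel and DMSO, against 1388 with it. Of the 20 luminal markers, Krt8 and Krt18 had at least 11668 counts in each library, whereas Krt19, Gata3, Elf5, Pgr and Cldn3 were at 0 in all 6 and Epcam had 1 count in total. A gene at or near 0 in this table is not shown to be silent, since Gapdh, a glycolytic enzyme that all cells use, was at only 2.20 to 5.49 CPM and Xbp1, a luminal marker also active in many other cells, at 0. The summed level of 22 heart muscle markers, which a breast cancer line should lack, was 188.4 to 427.8 CPM (counts scaled to 1e+06 per library) in DMSO and 159.3 to 647.5 in docetaxel. None of its 13 tested members was called.

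Itgb3, the gene of mouse integrin β3, had 111.9, 66.5 and 118.5 CPM in the DMSO cultures and 109.7, 93.99 and 93.3 CPM in docetaxel. The ranges overlapped, with a log2 fold change of 0.00 ± 0.23 (SE, edgeR quasi-likelihood test, adjusted p = 0.999). The knockout line with the empty vector had 0.331 to 1.34 CPM in DMSO and 0.434 to 0.867 CPM in docetaxel, on the scale of the 12 libraries of both lines. The construct is human and the counts are on the mouse genome, and whether the construct's reads fall on Itgb3 was not tested. Itgav, which encodes the αv partner, stood at 0.09 ± 0.07 (adjusted p = 0.485), and 0 of 13 tested integrin genes passed the test.

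Docetaxel raised interferon-stimulated genes, p53 targets and tubulins in hβ3 cells, and lowered genes of DNA replication, histones and actin-linked SRF and YAP targets. Ribosome assembly factors fell too, but that list was chosen after the values had been seen. Among 10549 genes tested on the 6 libraries, 773 rose and 615 fell at a Benjamini-Hochberg adjusted p under 0.05 (edgeR quasi-likelihood test). These are 7.33% and 5.83% of the genes, the background for every list count below. Changes of at least 2-fold were counted for 211 of the genes that rose and 29 of those that fell, and the median log2 change over all genes was -0.0032. The CPM ranges of the 2 groups did not overlap in 31.2% of all tested genes. The rule that named the largest changes and the smallest p required it, while that for list members did not. The count of 1388 called genes was 744, 742 and 691 without docetaxel culture 1, 2 or 3, and 141 when all 18 libraries shared 1 estimate of the spread (112 that rose and 29 that fell). In that fit 32 of the 43 list counts moved by over 1.5 times: 10 interferon genes, 4 p53 targets and 1 tubulin rose, and 1 DNA replication gene, 1 clustered histone gene, 2 SRF and YAP targets and 3 ribosome assembly factors fell.

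**Figure D1:**
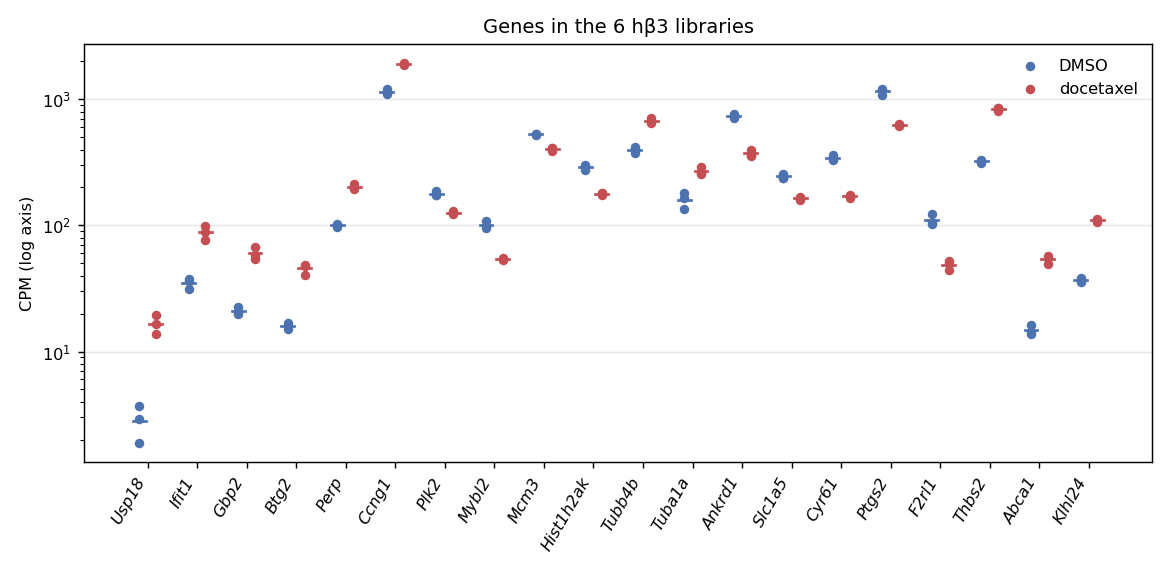
Levels of 20 genes in the 6 hβ3 libraries, in CPM on a log axis; each point is 1 culture (blue DMSO, red docetaxel) and each bar the mean of 3. The blue and red points do not overlap, in genes picked for large changes or small p. Plk2 is lower in docetaxel, from 172.9 to 185.9 CPM down to 124.2 to 130 CPM.

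Interferon-stimulated genes rose in 25 of 35 tested members and fell in none, against 7.33% of all genes that rose. Their median log2 change was 0.95, and 34 of the 35 were above 0. Usp18, which removes ISG15 from proteins and damps interferon signalling (chromosome 6, 121245906 to 121270917, mm10), had 3.72, 2.91 and 1.87 CPM in DMSO and 13.7, 16.7 and 19.4 CPM in docetaxel. All 3 docetaxel cultures were above all DMSO cultures, and the rise was 5.82-fold (log2 2.54 ± 0.22 SE, adjusted p = 1.6e-05). Ifit1, which binds foreign RNA caps, had 35.9, 37.5 and 31.5 CPM in DMSO and 76.98, 89.4 and 98.5 CPM in docetaxel. The ranges were apart, and the rise was 1.33 ± 0.10 on the log2 scale (adjusted p = 4.9e-06). Gbp2, an interferon-induced GTPase, went from 20.01, 22.6 and 20.6 CPM to 54.5, 57.9 and 67.9 CPM, a 2.85-fold rise (adjusted p = 2.1e-06). Isg15, the ubiquitin-like modifier itself, rose by 1.67 ± 0.19, Cmpk2, a mitochondrial nucleotide kinase, by 1.90 ± 0.25 and Irgm1, an immunity-related GTPase, by 0.84 ± 0.08. The number of list members that rose lay between 21 and 28 when any 1 library was left out.

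Interferon target genes are classically switched on through the interferon-stimulated response element (ISRE). The 250 bases before the start of 3 genes that rose are shown to let the element be seen, with matches in capitals to GAAA, any 2 bases and GAAA again, on either strand (RefSeq, GRCm38.p6, 5′ to 3′ along the gene; overlapping matches run together).
Ifit1 (chr19:34640639-34640888, plus strand): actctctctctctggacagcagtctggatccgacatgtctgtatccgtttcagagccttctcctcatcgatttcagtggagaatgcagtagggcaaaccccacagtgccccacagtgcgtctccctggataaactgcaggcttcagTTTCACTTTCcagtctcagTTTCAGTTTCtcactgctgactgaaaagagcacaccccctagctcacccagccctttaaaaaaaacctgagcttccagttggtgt
Isg15 (chr4:156200819-156201068, minus strand): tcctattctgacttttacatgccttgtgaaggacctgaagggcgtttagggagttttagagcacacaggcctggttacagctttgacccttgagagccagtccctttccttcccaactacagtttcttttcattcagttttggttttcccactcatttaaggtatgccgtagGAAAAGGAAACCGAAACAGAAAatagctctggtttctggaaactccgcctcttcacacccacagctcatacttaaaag
Gbp2 (chr3:142620413-142620662, plus strand): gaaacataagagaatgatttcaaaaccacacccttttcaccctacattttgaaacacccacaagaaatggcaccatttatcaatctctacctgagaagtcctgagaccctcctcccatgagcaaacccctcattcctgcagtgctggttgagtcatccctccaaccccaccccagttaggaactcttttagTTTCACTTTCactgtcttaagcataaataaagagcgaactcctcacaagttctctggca
Ifit1 held 2 matches, the nearer one ending 75 bases before the start, Isg15 held 3 and Gbp2 held 1. Of the 25 members that rose, 19 had a promoter entry and 11 of these (57.9%) held a match. The share was 46.4% of the 28 tested members with an entry, 2.79% of the 7031 tested genes with one, and 3.46% of all 27025 symbols in the table. A match is a description of the letters and was not tested as a binding site.

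Against 7.33% of all genes, 2 of 18 tested genes of nucleic acid sensing and interferon signalling rose. They were Ifi204, a DNA sensor of the p200 family, by 1.19 ± 0.27, and Il10rb, a receptor chain shared by type III interferon, by 0.53 ± 0.14. The call of Il10rb was lost without DMSO culture 1 or 3 or docetaxel culture 1 or 2, and that of Ifi204 without docetaxel culture 3. Among MHC class I genes 3 of 17 rose. Tap2, which carries peptides into the endoplasmic reticulum, had 7.38, 5.71 and 6.31 CPM in DMSO and 16.2, 17.3 and 16.6 CPM in docetaxel, with no overlap (adjusted p = 4.6e-05). Psmb9, an immunoproteasome subunit counted at no more than 1.49 CPM, rose by 2.72 ± 0.55 and H2-T23, a non-classical class I heavy chain, by 0.80 ± 0.18, a call lost without docetaxel culture 2.

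Of 39 tested p53 targets 24 rose and 2 fell, against 7.33% and 5.83% of all genes, with a median log2 change of 0.65. Perp, a p53-induced junction protein, had 97.0, 100.8 and 102.8 CPM in DMSO and 198.6, 211.3 and 194.2 CPM in docetaxel. Each docetaxel culture was well above every DMSO culture, at a log2 change of 1.01 ± 0.07 (adjusted p = 2.1e-06). Btg2, which restrains proliferation, rose by 1.51 ± 0.11, and Ccng1, cyclin G1, by 0.73 ± 0.06 from 1098 to 1207 CPM in DMSO up to 1876 to 1942 CPM. Cdkn1a, which encodes p21 and halts the cell cycle, rose by 0.79 ± 0.23 (adjusted p = 0.0412) at 1.89 to 5.06 CPM over 3 transcript models, and lost its call without DMSO culture 1 or any 1 docetaxel culture. Mdm2, which degrades p53, stood at 1.02 ± 0.51 (adjusted p = 0.23) and at under 1 CPM. Of the cell death genes, Bbc3 (PUMA), Pmaip1 (NOXA), Bok and Bax, all promoters of apoptosis, were the 4 of 10 tested BCL2 family members that rose, by 0.73, 0.65, 0.37 and 0.53. Fas, the death receptor, rose by 1.40 ± 0.27 from 1.07 to 1.83 CPM in DMSO up to 3.11 to 3.83 CPM. In its list of death receptors and adaptors 3 of 20 tested members rose and 1 fell, at a median of 0.06. The number that rose was 1 without docetaxel culture 1. Without docetaxel culture 2 or 3 the BCL2 family count was 2. Bok lost its call in those same fits, and Bax without any 1 library other than DMSO culture 2.

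The 2 p53 targets that fell were Plk2 and Epha2. Plk2, a Polo-like kinase of stress responses (chromosome 13, 110395046 to 110400844), had 175.3, 185.9 and 172.9 CPM in DMSO and 124.2, 125.1 and 130 CPM in docetaxel. The 2 ranges were well apart, and the change was -0.49 ± 0.07 (adjusted p = 4.9e-04). Epha2, an ephrin receptor, stood at -0.33 ± 0.06 (adjusted p = 0.00331).

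Tubulins rose in 8 of 12 tested members with none falling, against 7.33% of all genes that rose, at a median of 0.56. Tubb4b, a broadly expressed β-tubulin, had 406.8, 420.2 and 372 CPM in DMSO and 650.2, 713.2 and 668.3 CPM in docetaxel. The ranges did not overlap, and the rise was 1.69-fold (adjusted p = 1.8e-05). Tuba1a, an α-tubulin, rose by 0.75 ± 0.10, Tubb6 by 0.63 ± 0.09 and Tubb5, the main β-tubulin of dividing cells, by 0.33 ± 0.07. Tubb3, the neuronal β-tubulin linked to taxane resistance, had 0.21 ± 0.07 (adjusted p = 0.0729), and was called without DMSO culture 2. The call of Tubb5 was lost without docetaxel culture 2 or 3. Without docetaxel culture 1, 2 or 3 the number of tubulins that rose was 5, 3 and 4. Tubulin genes are similar in sequence, and the rule for reads that match several of them is not stated in the sources used here. Of 28 microtubule-binding proteins 3 fell and none rose, against 5.83% of all genes that fell. Among the 3 was Map1b at -0.32 ± 0.07, whose call was lost without docetaxel culture 2 or 3. Without docetaxel culture 2, 0 of the list fell. Of 5 tested drug efflux transporters 1 fell, Abcc1 (MRP1) at -0.28 ± 0.06, a call lost without docetaxel culture 1 or 3. Abcb1b, a gene of P-glycoprotein, had -0.20 ± 0.30 (adjusted p = 0.743) at 1.10 to 1.87 CPM.

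**Figure D2:**
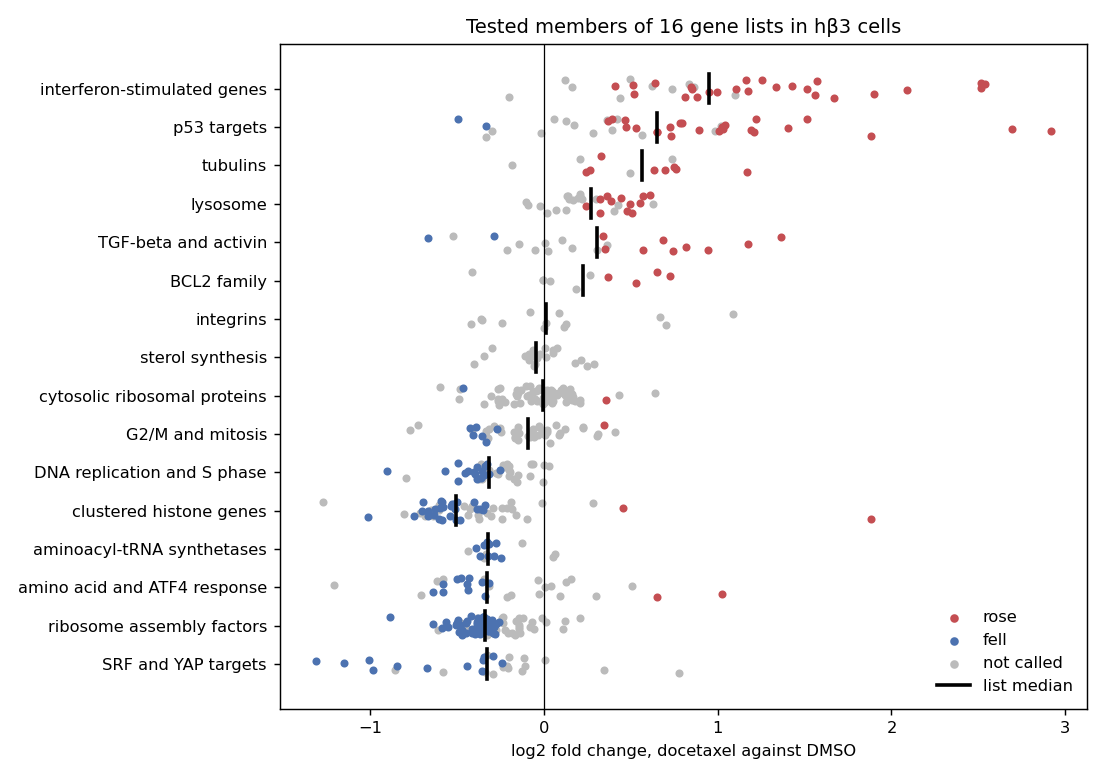
Log2 fold change of every tested member of 16 gene lists in hβ3 cells, docetaxel against DMSO; red points rose, blue points fell, grey points were not called and the black bar is the list median. The interferon median lies at 0.95, that of the tubulins at 0.56 and that of the histones at -0.51, against -0.0032 over all genes.

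In the DNA replication list, which also holds S phase regulators, 17 of 41 tested members fell and none rose, against 5.83% of all genes that fell, at a median of -0.31. Mybl2, a transcription factor of S phase entry, had 94.9, 108.4 and 99.8 CPM in DMSO and 53.3, 54.0 and 54.7 CPM in docetaxel. The docetaxel values were close together and well under all DMSO values (log2 -0.90 ± 0.08, adjusted p = 1.2e-05). Cdc25a, the phosphatase that opens S phase, stood at -0.57 ± 0.08, Rrm1, the large subunit of ribonucleotide reductase, at -0.44 ± 0.08, and Mcm3, part of the replicative helicase, at -0.39 ± 0.06. The number of list members that fell was 8 without docetaxel culture 1 and 7 without culture 3.

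Clustered histone genes, whose mRNA is made in S phase, fell in 27 of 56 tested members and rose in 2, at a median of -0.51. Hist1h2ak stood at -0.70 ± 0.07, from 274.9 to 302.3 CPM in DMSO down to 175.5 to 180.3 CPM, and the linker histone gene Hist1h1e at -0.63 ± 0.08. Hist1h2bc went the other way, from 3.03, 3.6 and 2.64 CPM to 13.1, 11.6 and 9.65 CPM (1.88 ± 0.18, adjusted p = 2.9e-05). Histone copies are nearly identical, so their counts can be exchanged between genes. The list count was 17 without DMSO culture 1 and 14 without docetaxel culture 1.

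Of 47 tested genes of G2/M and mitosis 6 fell and 1 rose, against 5.83% and 7.33% of all genes, at a median of -0.09. Aurkb, the Aurora B kinase, stood at -0.34 ± 0.07, Foxm1, a transcription factor of the late cell cycle, at -0.39 ± 0.09, and Top2a, which untangles chromosomes, at -0.27 ± 0.06. Each lost its call without some 1 library, that of Aurkb without docetaxel culture 1, that of Foxm1 without culture 2 and that of Top2a without culture 1 or 3. Ccnb2, a mitotic cyclin, was the member that rose (0.35 ± 0.07, adjusted p = 0.00779), a call lost without docetaxel culture 1, while Ccnb1 had 0.30 ± 0.15 (adjusted p = 0.211). Mki67, the proliferation marker, fell by 0.43 on the log2 scale ± 0.10 (adjusted p = 0.022), a call lost without DMSO culture 1 or 3 or docetaxel culture 2 or 3. The number that fell was 3, 3 and 2 without docetaxel culture 1, 2 or 3.

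Targets of SRF and YAP, transcriptional regulators that read actin tension and adhesion, fell in 12 of 27 tested members and rose in none, at a median of -0.33. Cyr61, a matricellular YAP target, had 332.9, 336.1 and 358.8 CPM in DMSO and 170.5, 175.4 and 164.3 CPM in docetaxel. The docetaxel cultures all lay far under the DMSO cultures (log2 -1.01 ± 0.07, adjusted p = 1.6e-06). Ankrd1, a nuclear YAP target, went from 727.2, 766.5 and 713.4 CPM to 352.9, 400 and 364.3 CPM (-0.98 ± 0.07). Ctgf, a close relative of Cyr61, stood at -0.84 ± 0.10. Actb, cytoplasmic β-actin, stood at -0.35 ± 0.07 (adjusted p = 0.00642), so it is no constant reference here.

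YAP acts through TEAD factors, which bind GGAATG. The 250 bases before the start of Ankrd1 hold it 2 times (capitals, either strand; RefSeq, GRCm38.p6).
Ankrd1 (chr19:36119845-36120094, minus strand): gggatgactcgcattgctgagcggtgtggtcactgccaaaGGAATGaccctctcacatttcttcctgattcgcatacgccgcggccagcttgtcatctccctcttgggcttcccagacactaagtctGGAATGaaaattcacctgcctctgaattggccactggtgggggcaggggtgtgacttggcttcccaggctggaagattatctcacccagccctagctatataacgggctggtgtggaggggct
Of the 12 SRF and YAP targets that fell, 8 had a promoter entry and 4 of these (Ajuba, Ankrd1, Crim1 and Vcl) held the motif. Of the 27 tested targets 20 had an entry, and 10 of these held it, the same share as among those that fell. It was present in 12.4% of the promoters of tested genes, in 12.2% of the promoters of all genes that fell and in 14.4% of all in the table.

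Of adhesion and integrin signalling genes 4 of 29 tested fell and 1 rose, against 5.83% and 7.33% of all genes. Rhob, a small GTPase of actin, stood at -0.53 ± 0.08, Tns3, a tensin, at -0.47 ± 0.08 and Fermt2, the integrin activator kindlin-2, at -0.36 ± 0.08, while the adaptor gene Shc1 rose by 1.00 ± 0.14. Fermt2 was not called, and the number that fell was 2, without docetaxel culture 2 or 3, and it was 8 without a filter on low counts. Matrix and mesenchymal genes were split, with 4 of 35 that rose and 5 that fell (3 without DMSO culture 1 or docetaxel culture 1 or 2). Thbs2, the matrix glycoprotein thrombospondin-2 (chromosome 17, 14665500 to 14694235), had 331.6, 312.4 and 324.5 CPM in DMSO and 855.9, 812.9 and 850.4 CPM in docetaxel, with cultures of a group close together (1.38 ± 0.06, adjusted p = 1.3e-07). Tnc, tenascin-C, stood at -0.84 ± 0.09, Col7a1, an anchoring collagen, at -0.56 ± 0.09 and Cdh2, N-cadherin, at -0.51 ± 0.07.

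Among secreted and receptor-level genes, Ptgs2, the inducible cyclooxygenase COX-2, had 1194, 1082 and 1218 CPM in DMSO and 638.1, 626.7 and 618.9 CPM in docetaxel. The decrease was 1.86-fold (adjusted p = 3.3e-06). F2rl1, the protease-activated receptor PAR2, stood at -1.17 ± 0.10, Rgs16, a brake on G protein signals, at -1.13 ± 0.12 and Tnfaip3, the NF-κB inhibitor A20, at -1.11 ± 0.21. The chemokine genes Cx3cl1 and Ccl5 rose by 1.25 ± 0.18 and 0.91 ± 0.19, among 5 that rose and 2 that fell of 21 chemokines, cytokines and NF-κB factors. Without docetaxel culture 1, 2 or 3 the number that rose was 2, 3 and 3. Among 31 tested immediate-early genes and MAPK outputs 6 fell and 3 rose, against 5.83% and 7.33% of all genes. Klf2 stood at -0.93 ± 0.09, and Dusp5, a phosphatase of ERK, at -0.78 ± 0.08. In the TGF-β and activin list 9 of 21 rose and 2 fell. Bmp2, a growth factor of the family, rose by 1.17 ± 0.14, Inhbb by 1.36 ± 0.19 and Tgfb3 by 0.95 ± 0.11. Inhba, the activin A subunit, fell by 0.67 on the log2 scale ± 0.15, a call lost without docetaxel culture 2 or 3, and the number that rose was 5 without docetaxel culture 3.

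The list of ATF4 targets and amino acid genes had 11 of 30 tested members that fell and 2 that rose, at a median of -0.33. Slc1a5, a glutamine transporter, had 239.3, 256.2 and 238.1 CPM in DMSO and 159.1, 167.9 and 163.9 CPM in docetaxel (-0.58 ± 0.07, adjusted p = 1.3e-04), and Chac1, which degrades glutathione, stood at -0.58 ± 0.09. The 2 that rose, Ddit4 (1.02 ± 0.08) and Sesn2 (0.65 ± 0.09), both inhibitors of mTORC1, are also in the p53 list. Of 15 aminoacyl-tRNA synthetases 9 fell and none rose, with Iars at -0.39 ± 0.07 and Yars at -0.35 ± 0.06. Without docetaxel culture 1, 2 or 3 the ATF4 count was 7, 6 and 7, and the synthetase count was 5 without culture 1 or 3.

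Ribosome assembly factors, a list chosen after the values had been seen, fell in 46 of 76 tested members and rose in none, at a median of -0.34. Nop56, a core protein of box C/D snoRNPs, had 265.4, 313 and 269.1 CPM in DMSO and 185.3, 194.1 and 185.7 CPM in docetaxel (-0.58 ± 0.08, adjusted p = 3.3e-04). Rrp12 stood at -0.55 ± 0.06 and Nop2, a ribosomal RNA methyltransferase, at -0.50 ± 0.07. Rn45s itself had -0.90 ± 0.61 (adjusted p = 0.454), with overlapping ranges, and its level after removal of ribosomal RNA depends on that step. Genes for the proteins of the finished ribosome were divided, with 1 of 69 that rose, 1 that fell and a median of -0.006. Without docetaxel culture 1 or 3, 26 assembly factors fell.

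Lysosomal genes rose in 12 of 30 tested members and fell in none, at a median of 0.27. Grn, progranulin, had 578, 576.6 and 603.7 CPM in DMSO and 909.1, 822.4 and 850.5 CPM in docetaxel (0.55 ± 0.07, adjusted p = 1.3e-04), and Ctsb, the protease cathepsin B, rose by 0.49 ± 0.07. The count was 7 without docetaxel culture 2. Of 25 genes of glycolysis and hypoxia 5 fell and 2 rose, with Hk2, a hexokinase, at -0.51 ± 0.07. The number that fell was 3 without DMSO culture 1 and 2, 3 and 1 without docetaxel culture 1, 2 or 3. Of 37 tested nuclear genes of oxidative phosphorylation 2 rose and none fell, against 7.33% and 5.83% of all genes. The number that rose was 0 without DMSO culture 3 or docetaxel culture 1 or 2, 1 without docetaxel culture 3 and 8 without DMSO culture 2. Of 22 sterol synthesis genes and of 16 endoplasmic reticulum chaperones none passed the test.

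In smaller pathways few members passed the test. Over all genes 7.33% rose and 5.83% fell. Hbegf, an EGF receptor ligand, had 192.5, 174.5 and 186 CPM in DMSO and 113.3, 120.8 and 118.5 CPM in docetaxel, with no overlap (-0.65 ± 0.07, adjusted p = 8.1e-05). It was the 1 member of 11 tested EGF receptor family genes and ligands that fell, and Erbb3, the receptor HER3, the 1 that rose (1.03 ± 0.23), a call lost without docetaxel culture 1 or 2. Wnt7a, a secreted WNT ligand, had 124.5, 112.3 and 119.1 CPM in DMSO and 70.4, 69.92 and 75.3 CPM in docetaxel and was the 1 of 20 WNT pathway genes that fell, while 2 rose. That number was 5 without DMSO culture 2, 0 without docetaxel culture 1 and 1 without DMSO culture 1 or 3 or docetaxel culture 3. Gstm1, a glutathione transferase, rose by 1.23 ± 0.13, as 1 of 3 of 23 NRF2 targets that rose, a number that was 1 without DMSO culture 1 or docetaxel culture 1 or 2. Plat, the tissue plasminogen activator, rose by 0.98 ± 0.16 from 4 to 4.48 CPM in DMSO up to 7.59 to 8.86 CPM.

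Outside the lists, the rises with the smallest p included Klhl24, an adaptor for ubiquitin ligation, which had 36.4, 38.1 and 35.3 CPM in DMSO and 106.9, 110.1 and 111.7 CPM in docetaxel. The groups were far apart against their spread (1.58 ± 0.08, adjusted p = 1.3e-07). Abca1, the cholesterol exporter, rose by 1.87 ± 0.11 and Cdc42bpg, a kinase downstream of Cdc42, by 1.27 ± 0.07. Dio2, a deiodinase that makes active thyroid hormone, rose by 2.03 ± 0.29, and Mettl7b stood at -1.07 ± 0.14. Members of smaller lists among the largest changes were Slc40a1, which exports iron (1.98 ± 0.28), Serpine2, a protease inhibitor (2.04 ± 0.28), and S100a7a, an S100 protein (-1.07 ± 0.10). Ucn2, a peptide hormone, had the largest decrease by the naming rule (-1.37 ± 0.34) but lost its call without docetaxel culture 2 or 3.

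Some markers of other cell types moved with treatment. Myh1, a skeletal muscle myosin, rose by 2.39 ± 0.32 from at most 1.07 CPM in DMSO to 3.31 to 4.97 CPM, while the sum of 16 skeletal muscle markers overlapped between groups, at 26.1 to 59.0 CPM in DMSO and 27.5 to 88.9 CPM in docetaxel. The sum of 14 leukocyte and macrophage markers did not overlap, at 30.5 to 41.2 CPM in DMSO and 47.9 to 49.2 CPM in docetaxel. Most of its counts were of Cd14 (2931 over the 6 libraries). Ranges of single genes did not overlap in 31.2% of all tested genes. Cd68 and Cd14 were the 2 of 5 tested members that rose (1.29 ± 0.23 and 0.39 ± 0.11), and Ptprc, a marker of all leukocytes, was listed at 0, which, as said of Gapdh and Xbp1, does not show that it was silent. The call of Cd14 was lost without any 1 library other than DMSO culture 2. Cd68 is also a lysosomal protein. The sum of 12 basal markers was 2.38 to 3.71 CPM in DMSO and 4.37 to 6.04 CPM in docetaxel, with Krt14 and Trp63 at 0. Of the 2 tested members Krt15, at a mean of only 1.48 CPM, rose by 2.97 ± 0.36 (0 basal markers were called by DESeq2). The other, Acta2, stood at -0.22 ± 0.33 and was not called. Luminal markers summed to 1799 to 1914 CPM in DMSO and 2061 to 2301 CPM in docetaxel, with Krt8 rising by 0.28 ± 0.07, a call lost without docetaxel culture 2 or 3. The sum of 12 fibroblast markers did not overlap either, at 2048 to 2304 CPM in DMSO and 2495 to 2805 CPM in docetaxel. It is nearly all S100a4, with 220467 counts over the 6 libraries against 995 for Col3a1, the next member. S100a4 rose by 0.24 ± 0.07 (edgeR quasi-likelihood test, adjusted p = 0.0377), and the other 5 tested members were not called, with Col1a2 at -0.50 ± 0.25. The call of S100a4 was lost without any 1 library other than DMSO culture 2. The part of these markers in the other results was not tested, and in bulk RNA a change in the share of cells cannot be told apart from a change per cell.

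The next question was whether the response with hβ3 differed from that with the empty vector. Of 11646 genes tested in the 12 libraries of both lines, 106 had a higher and 107 a lower response in hβ3 cells (edgeR quasi-likelihood test of the interaction), which is 0.91% and 0.919%. The lines' contrasts share no libraries. Of the 1388 genes called in hβ3, 1364 were tested in a fit of the 6 pMx libraries alone. There 1211 had the same sign, 817 were called in the same direction and 12 in the opposite one. Among all 10893 genes tested in that pMx fit, 1079 rose and 1160 fell. The share of all genes with the same sign in both lines is not given here. The 817 genes were 58.9% of those called in hβ3 and 36.5% of the 2239 called in pMx.

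**Figure D3:**
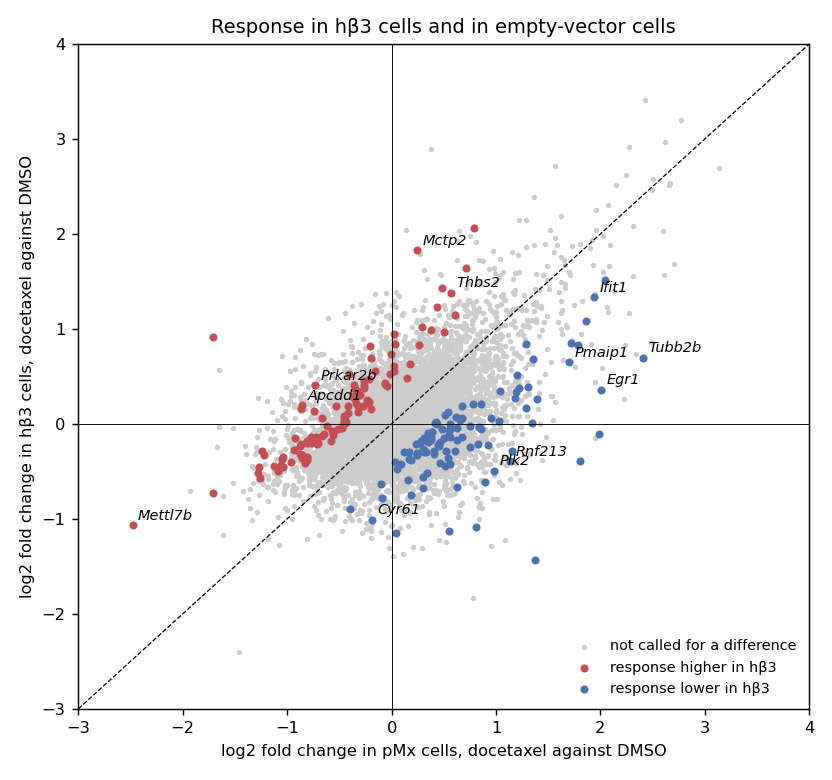
Log2 fold change in hβ3 cells (vertical) against that in pMx cells (horizontal), each fitted on its own 6 libraries, for 10200 genes; the dashed line marks equal responses. Coloured points are the 210 of 213 genes called for a difference that were tested in all 3 fits; Plk2 lies at 0.98 in pMx and -0.49 in hβ3.

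Plk2 and Cyr61 started from much higher levels with hβ3 and fell there; the difference in starting level itself was not tested. On the scale of the 12 libraries Plk2 had 25.5, 25.9 and 22.9 CPM in pMx DMSO and 48.0, 49.98 and 47.3 CPM in pMx docetaxel. In hβ3 it had 197.3, 206.9 and 195.4 CPM in DMSO and 138.4, 140.7 and 143.3 CPM in docetaxel. It thus went up in 1 line and down in the other, with a difference in response of -1.47 ± 0.11 (SE, log2, adjusted p = 2.7e-07). Cyr61 was at 68.2 CPM ± 3.47 (SD, n = 3) and 59.4 ± 4.11 in pMx, against 384.7 ± 17.9 and 189.4 ± 8.16 in hβ3 (-0.82 ± 0.11, adjusted p = 3.0e-04). Ptgs2 fell in both lines, and further in hβ3 (difference -0.49 ± 0.10, adjusted p = 0.0175), a call lost without hβ3 docetaxel culture 2 or 3, pMx DMSO culture 2 or pMx docetaxel culture 3.

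Several genes rose in pMx with a smaller or no called rise in hβ3. Egr1, an immediate-early transcription factor, had 14.7, 17.5 and 18.2 CPM in pMx DMSO and 55.2, 77.8 and 68.2 CPM in pMx docetaxel. In hβ3 it had 18.3, 19.3 and 25.8 CPM and then 27.3, 27.3 and 26.1 CPM, a difference in response of -1.65 ± 0.20 (adjusted p = 1.2e-04). It is 1 of 5 immediate-early and MAPK output genes of 33 tested with a lower response, and none had a higher one. Over all genes 0.919% had a lower and 0.91% a higher response. Rnf213, an interferon-induced ubiquitin ligase, differed by -1.53 ± 0.17, Tubb2b by -1.71 ± 0.25, Tubb3 by -0.65 ± 0.11, Rgs2 by -1.13 ± 0.18 and Pmaip1 by -1.05 ± 0.19. In hβ3 Rnf213 stood under 0, at -0.39 ± 0.12. It was not called in the main hβ3 fit, but was called as a decrease by DESeq2 and without DMSO culture 2, among other settings. Interferon-stimulated genes had a lower response in 5 of 42 tested members and a higher one in none, against the same shares of all genes. Their median difference was -0.45. Ifit1 and Gbp2 rose in both lines, with differences of -0.61 ± 0.15 and -0.53 ± 0.13 (adjusted p = 0.0395 and 0.0364). The call of Ifit1 was lost in 9 of the 12 fits without 1 library, as was that of Gbp2.

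DNA replication genes fell less with hβ3. Of 42 tested members 14 had a higher, that is less negative, response and none a lower one, against 0.91% and 0.919% of all genes. Their median difference was 0.44, with 39 above 0. The difference was also above 0 in 55 of 57 clustered histone genes, 67 of 71 cytosolic ribosomal protein genes and 36 of 37 nuclear genes of oxidative phosphorylation. Over all 11646 genes it was above 0 in 6211. Mcm2, a helicase subunit, went from 590.7, 602.5 and 567.7 CPM to 352.2, 327.4 and 316.8 CPM in pMx, and from 648.8, 660 and 643.7 CPM to 498.1, 524.1 and 503.7 CPM in hβ3. The groups do not overlap in either line, and the difference in response was 0.47 ± 0.09 (adjusted p = 0.00992), a call lost without pMx DMSO culture 2. The calls of Mcm3 and Ccne1 were lost in that fit too. Mthfd2, a mitochondrial folate enzyme, differed by 0.68 ± 0.10 and Ddit4 by 0.73 ± 0.11. Apcdd1, an inhibitor of WNT signals, went from 218.2 CPM ± 3.96 to 119.6 ± 5.72 in pMx and from 169 ± 10.8 to 192.4 ± 2.25 in hβ3 (SD, n = 3), a difference of 1.05 ± 0.10 (adjusted p = 7.0e-06). In the hβ3 fit alone it was not called (0.20 ± 0.07, adjusted p = 0.0997), though it was without DMSO culture 2. Mctp2 had 66.9, 56.98 and 60.5 CPM in pMx DMSO and 68.7, 75.7 and 72.04 CPM in docetaxel, against 5.68, 6.42 and 5.67 CPM and then 22.2, 22.04 and 18.4 CPM in hβ3 (1.58 ± 0.15, adjusted p = 8.3e-06). Thbs2 rose in both lines, from 3306 CPM ± 79.2 to 4879 ± 250.4 in pMx and from 362.4 ± 13.3 to 935 ± 19.6 in hβ3 (0.81 ± 0.09). Prkar2b, a regulatory subunit of protein kinase A, differed by 1.14 ± 0.15.

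**Figure D4:**
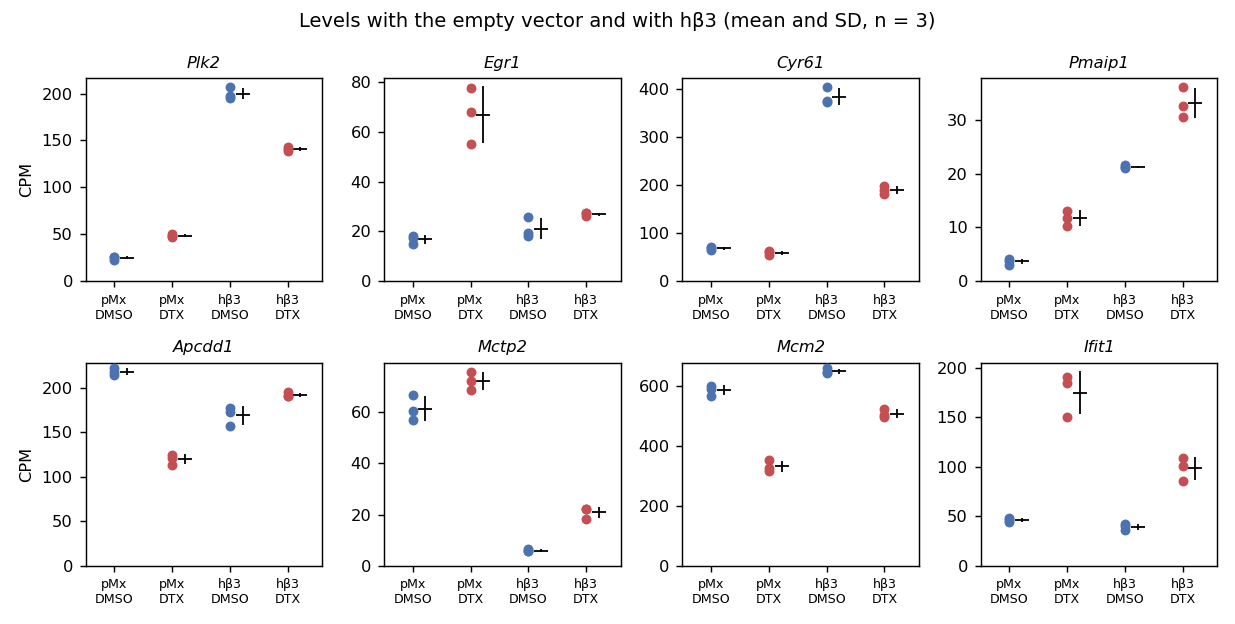
Levels of 8 genes with the empty vector (pMx) and with hβ3 in CPM on the scale of the 12 libraries; points are cultures (blue DMSO, red docetaxel) and the black marks the mean and SD of 3. Plk2 rises from about 24.8 to 48.4 CPM in pMx and falls from 199.8 to 140.8 CPM in hβ3.

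The count of 213 was 139, 395 and 111 without hβ3 DMSO culture 1, 2 or 3, 73 and 105 without hβ3 docetaxel culture 2 or 3, 58 and 129 without pMx DMSO culture 2 or 3, and 78 without pMx docetaxel culture 3. The sum of the heart muscle markers was 385 to 1930 CPM in pMx DMSO and 204.6 to 2232 CPM in pMx docetaxel, on the scale of all 18 libraries. All 15 tested heart markers had a difference in response above 0 and none was called, and their part in the comparison was not tested.

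Against the signalling-deficient mutant only Plk2 was called among 11463 genes in the 12 libraries of both lines (0.00872% of them; edgeR quasi-likelihood test, 578 at an unadjusted p under 0.05, 9 genes by DESeq2). It went from 22.2, 25.9 and 22.6 CPM to 54.6, 60.8 and 53.9 CPM in Δβ3, where it rose as in pMx, and its difference in response was -1.76 ± 0.17 (adjusted p = 0.0033). On the scale of all 18 libraries, Δβ3 DMSO culture 1 and docetaxel culture 2 carried a heart marker sum of 5273 and 43970 CPM, against 283 to 451.2 CPM in the other 4 Δβ3 libraries. Without those 2 cultures, 30 genes had a higher and 47 a lower response in hβ3 of 11646 tested (0.258% and 0.404%, together 0.661%). Plk2 then differed by -1.65 ± 0.13, Pmaip1 by -1.32 ± 0.24, Rgs2 by -1.19 ± 0.20, Mctp2 by 1.61 ± 0.18 and Apcdd1 by 0.98 ± 0.12. Egr1, by contrast, had -0.32 ± 0.17 (adjusted p = 0.525), with 143.2 CPM ± 1.10 in Δβ3 DMSO and 228.2 ± 34.0 in docetaxel (SD, n = 2). Of 34 tested immediate-early and MAPK output genes 4 had a lower response and none a higher one, with 28 under 0. Of 43 DNA replication genes 1 had a higher response and none a lower one. Over all genes 0.258% had a higher and 0.404% a lower response. The hβ3 libraries are shared by this comparison and the one with pMx.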

How the data were processed

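RNA was sequenced from 18 cultures, of which the 6 hβ3 libraries are the subject. Per the labels' protocols, 1 µg of total RNA was depleted of ribosomal RNA by hybridisation, primed with random hexamers, amplified for 13 cycles and sequenced from 1 end over 50 bases. What the authors deposited is a table of raw counts per transcript model, made with FastQC, HISAT2 and featureCounts on mm10, per the submitters' processing notes. Tool versions, gene models, strandedness and the treatment of reads with several matches are not stated in the sources used here, so genes with overlapping or antisense partners, or near-identical copies, are uncertain. Another deposited column, the length of each model, is in bases and was not used.

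Counts of 63759 models were summed into 32699 symbols (13170 symbols had several models), after blanks at the end of symbols had been removed. R 4.3.3 and edgeR 4.0.16 were used: filterByExpr, TMM factors, the robust quasi-likelihood F-test (two-sided) and Benjamini-Hochberg adjustment over all genes tested, on the libraries of the groups compared only. SE is the log2 fold change divided by the square root of F. CPM is per 1e+06 counts of the TMM-scaled library size of the fit. Coordinates are from GENCODE M21 (mm10); 9065 tested symbols matched. DESeq2 1.42.0 and limma 3.58.1 (voom) served as alternatives, with others described under the closing part on processing. The test script was tested on simulated data.

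Named genes were protein coding, called, at a mean of at least 2 CPM and with ranges that did not overlap: the 12 largest changes and the 5 smallest p in each direction. To these were added up to 4 members of each of 43 gene lists, the ribosome assembly list included, and a fixed set of control genes. Up to 6 genes in each direction per interaction, among those called at 2 CPM or more, were added too. Not all genes that met the rule are printed. Isg15, Epha2, Ajuba, Crim1, Vcl, Inhba, Mcm2, Mthfd2 and Ccne1 fall outside it; they were picked with their values in view. Of the genes named for the hβ3 response, only some also have their differences between lines given, mostly those called for such a difference. For the rest that difference is not printed. The comparisons, members and lists were chosen with earlier results of these data known.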

Additional observations from a re-analysis of the deposited data

Results flagged for a closer look

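The response to docetaxel differed between the hβ3 line and the others by the test of the interaction itself (edgeR quasi-likelihood, adjusted p under 0.05) for 213 genes against pMx and for 1 gene, Plk2, against Δβ3 (-1.76, log2). Groups of 3 cultures were not searched for single values that stand apart.

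Against pMx, the response in hβ3 was lower for Plk2 (-1.47), Tubb2b (-1.71), Egr1 (-1.65), Rnf213 (-1.53), Rgs2 (-1.13), Pmaip1 (-1.05), Inhba (-0.98), Col7a1 (-0.86), Cyr61 (-0.82), Tubb3 (-0.65), Ifit1 (-0.61), Gbp2 (-0.53), Mki67 (-0.52), Ptgs2 (-0.49) and Irgm1 (-0.45). It was higher for Mctp2 (1.58), Mettl7b (1.41), Scara5 (1.27), Prkar2b (1.14), Apcdd1 (1.05), Thbs2 (0.81), Gstm1 (0.80), Ddit4 (0.73), Bok (0.72), Mthfd2 (0.68), Ccne1 (0.58), Egln3 (0.58), Nptx1 (0.53), Mcm2 (0.47) and Mcm3 (0.42). Of these 30 genes 17 kept their call in every alternative fit of that comparison. The 13 that lost it in at least 1 fit were Ifit1, Gbp2, Irgm1, Bok, Mcm3, Mcm2, Ccne1, Mki67, Ptgs2, Scara5, Egln3, Gstm1 and Inhba.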

How the results depend on the processing

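Of the 1388 calls in hβ3, 1378 were made in the same direction with RLE factors (1388 calls), 1378 without Rn45s (1389), 1241 with DESeq2 (1329), 1252 with limma-voom (1261) and 135 with 18 libraries (141). Leaving out 1 library gave 691 to 1957. Of 129 named called genes, 38 kept their call in all settings that gave them an adjusted p, 56 lost it only with 18 libraries and 35 elsewhere. No call changed direction. Krt15 is among the 38, though DESeq2 did not call it. The 213 differences from pMx were 325 without a count filter, 422 with DESeq2 and 58 to 395 with 1 library left out. Against Δβ3 the 1 call became 9 with DESeq2, 77 without the 2 cultures rich in heart transcripts and 1 to 3 with 1 library left out. With the replicate number as a block the counts were 1576, 350 and 1 in the same order. Deviations of same-numbered hβ3 cultures correlated at -0.0067, 0.1968 and -0.0892, and the highest value of any pair was 0.2269 (DMSO 3, docetaxel 1). With 3 cultures per group such correlations cannot decide whether the numbers pair the samples. Keeping blanks in symbols, an alternative added after the data were seen, gave 1388. Mdm2, Itga2b and Abcb1b were each under 3 CPM; what depth and what lost reads add to such low values was not tested.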
